A study of Mus musculus with 31 samples.

Results

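The B lymphocyte genes described here are Cd79a, Cd79b, Ms4a1, Cd22, Blk, Pax5 and Pou2af1, 7 of the 22609 gene symbols in each of 2 expression tables of mouse mammary tissue. They were chosen by symbol, as B cell receptor partners, surface markers and factors, and with their levels in these tables in view, so their levels and their count past a fold are a description and carry no test. Poly(A) RNA was sequenced from glands taken without lymph nodes at day 6 of pregnancy and on the day of parturition, under 12 hours after birth, in mice of mixed 129SV::FVB/N::C57BL/6 background with 0 to 4 functional alleles of Stat5a and Stat5b, the neighbouring genes for transcription factors that act downstream of prolactin. No age is used here. Null mice are Stat5abfl/fl;MMTV-Cre, with the deletion in mammary epithelium (0 alleles there). B mice carry Stat5abnull/Stat5a- and keep 1 Stat5b allele, and A mice carry Stat5abnull/Stat5b- and keep 1 Stat5a allele. BB mice are Stat5a-/- with 2 Stat5b alleles, and AB mice are Stat5ab+/null with 1 allele of each gene. AABB mice are labelled wild type, with 4 alleles, a name that the series' design text also gives to floxed mice without Cre.

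The labels list 3 samples per genotype at day 6, and at parturition 3 for B and 2 for every other genotype, while the protocol speaks of 2 mice per genotype. The tables hold a single FPKM column per genotype and stage (fragments scaled for transcript length and library size), the authors' mean over the listed samples. Every value below is therefore a mean with no replicate error, and differences were neither tested nor checked against replicates. Levels are FPKM scaled so that the typical gene matches between the columns of a stage, called scaled FPKM, and each log2 ratio is of scaled FPKM + 1. The read depth behind the columns is unknown. In B, A, BB and AB mice the alleles were lost in every cell, lymphocytes included, whereas Null mice lost them where MMTV-Cre acts, so Null differs from the others in the manner of loss as well as in allele number. The sample tags of B and A share numbers with different letters, and whether such samples came from the same animal is not given in the labels.

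B lymphocytes carry an antigen receptor made of membrane immunoglobulin and the CD79A-CD79B pair, whose cytoplasmic tails pass the signal to kinases of the SRC and SYK families. PAX5 commits precursor cells to the B lineage and keeps them in it, and plasma cells, which secrete antibody, switch it off along with much of the B cell surface programme. In the mammary gland, cells that secrete antibody gather late in pregnancy and in lactation and supply immunoglobulin A to milk, carried across the epithelium by the receptor encoded by Pigr.

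Promoters in RefSeq (build GRCm38.p6) were matched for 4 of the 7 genes and are shown because these genes had like profiles across genotypes at day 6. That likeness follows in part from how the genes were chosen. Each window runs from 250 bases before the annotated start to 50 after it, on the strand of the gene, and capitals mark a match to a searched motif. The windows are chr7:24897247-24897546 (plus strand) for Cd79a, chr7:30878979-30879278 (minus strand) for Cd22, chr4:44710645-44710944 (minus strand) for Pax5 and chr9:51213440-51213739 (plus strand) for Pou2af1.
Cd79a: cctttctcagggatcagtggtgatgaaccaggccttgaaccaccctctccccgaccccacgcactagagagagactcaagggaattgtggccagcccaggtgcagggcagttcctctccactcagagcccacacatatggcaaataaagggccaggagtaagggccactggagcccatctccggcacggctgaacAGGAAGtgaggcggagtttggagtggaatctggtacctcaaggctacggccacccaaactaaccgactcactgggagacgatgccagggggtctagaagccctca
Cd22: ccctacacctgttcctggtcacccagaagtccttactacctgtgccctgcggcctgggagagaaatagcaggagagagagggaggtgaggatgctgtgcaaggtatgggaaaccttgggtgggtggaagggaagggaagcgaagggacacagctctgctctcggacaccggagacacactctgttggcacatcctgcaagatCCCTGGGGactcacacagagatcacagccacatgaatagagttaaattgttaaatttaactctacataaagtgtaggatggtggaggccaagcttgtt
Pax5: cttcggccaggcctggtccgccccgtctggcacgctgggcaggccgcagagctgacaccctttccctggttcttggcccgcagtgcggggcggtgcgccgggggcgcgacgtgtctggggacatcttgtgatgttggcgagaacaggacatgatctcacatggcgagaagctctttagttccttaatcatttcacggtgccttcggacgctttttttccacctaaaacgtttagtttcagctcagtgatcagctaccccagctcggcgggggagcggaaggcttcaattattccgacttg
Pou2af1: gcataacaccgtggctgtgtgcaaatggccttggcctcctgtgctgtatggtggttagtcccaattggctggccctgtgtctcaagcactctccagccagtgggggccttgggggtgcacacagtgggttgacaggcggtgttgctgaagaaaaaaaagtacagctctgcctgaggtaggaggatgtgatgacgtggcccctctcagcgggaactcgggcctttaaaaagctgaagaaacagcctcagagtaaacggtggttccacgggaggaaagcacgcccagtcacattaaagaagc
Searched on both strands were ATGCAAAT (the octamer), CCCNNGGG (a core bound by EBF1), AGGAAG (an ETS core) and TTCNNNGAA (the STAT5 site). Cd79a held a single AGGAAG, a motif present in 35.4% of the 32851 promoters of the same length, and Cd22 a single CCCNNGGG, present in 13.7%. The Pax5 and Pou2af1 windows held none of the 4 motifs. The octamer was in 1.74% and the STAT5 site in 8.3% of all promoters, and neither was in these 4 windows.

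Stat5a and Stat5b themselves were read first, as a check of the labels. At day 6, Stat5a stood at 13.6 scaled FPKM in Null, 12.5 in B, 15.9 in A, 3.67 in BB, 13.4 in AB and 33.6 in AABB. Stat5b stood at 9.04 in Null, 12.3 in B, 10.6 in A, 14.9 in BB, 11.7 in AB and 16.7 in AABB. The column labelled B, with no intact Stat5a allele, thus kept more Stat5a RNA than BB, and the column labelled A, with no intact Stat5b allele, kept Stat5b RNA at a level close to AB. Which exons the alleles lack is not given in the sources used here, so these levels do not settle the labels, and the 2 columns are called the columns labelled B and A where a direction is drawn from them.

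At day 6 of pregnancy all 7 B lymphocyte genes were highest in the column labelled B and next highest in the column labelled A. Their summed level was 16.6 scaled FPKM in Null, 176 in B, 151 in A, 8.80 in BB, 7.26 in AB and 5.22 in AABB. The columns labelled B and A stood apart from the other 4, with Null, BB and AB all well below them. In whole tissue, fewer cells of a type and less RNA per cell cannot be told apart.

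**Figure D1:**
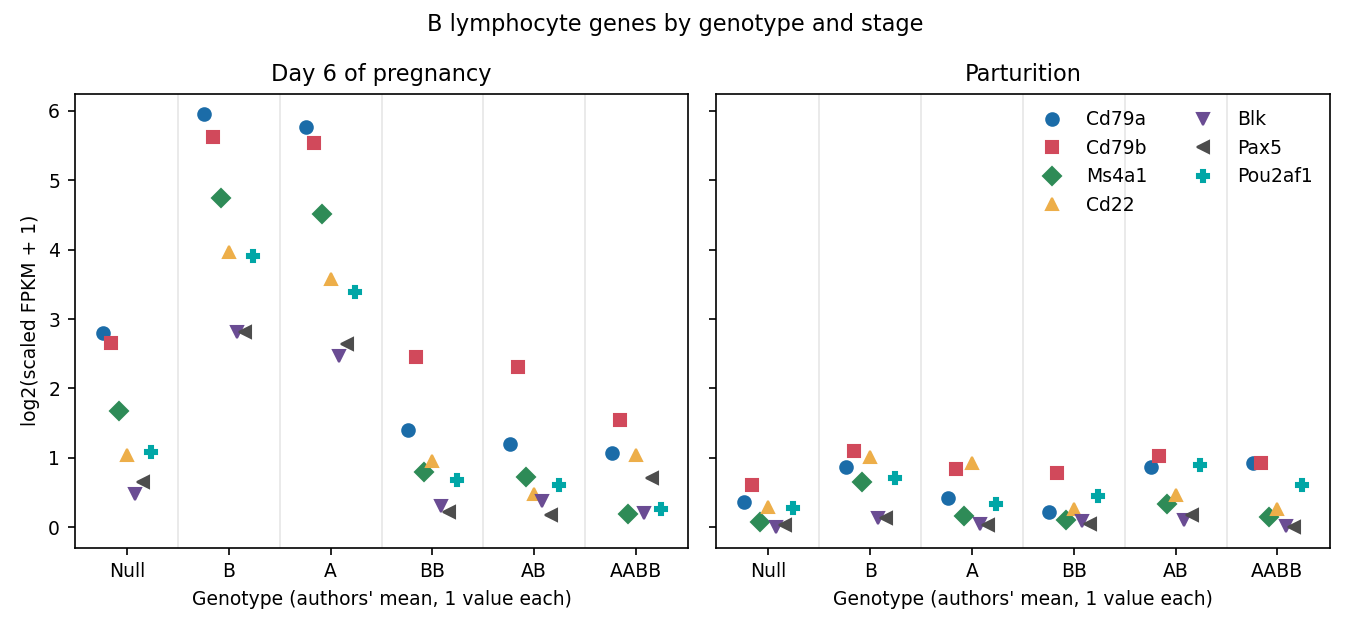
Level of each of the 7 B lymphocyte genes in the 6 genotypes, as log2 of scaled FPKM + 1, at day 6 of pregnancy (left) and at parturition (right); each point is the authors' mean and has no error bar. At day 6 the B and A points are the highest for every gene (for Cd79a, 61.0 and 53.5 scaled FPKM), whereas at parturition no gene exceeds 1.13 scaled FPKM.

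The receptor partners were the most abundant. Cd79a, the immunoglobulin alpha chain, stood at 5.95 scaled FPKM in Null, 61.0 in B, 53.5 in A, 1.64 in BB, 1.30 in AB and 1.10 in AABB. Cd79b, the immunoglobulin beta chain that pairs with it, stood at 5.31 in Null, 48.6 in B, 45.3 in A, 4.50 in BB, 3.95 in AB and 1.92 in AABB. Both were by far the highest in the columns labelled B and A; Null came next, well above BB, AB and AABB for Cd79a but close to BB and AB for Cd79b. As log2 ratios over AABB, Cd79a was at 1.73 in Null, 4.88 in B and 4.70 in A, and Cd79b at 1.11, 4.08 and 3.99 in the same order. Although CD79A and CD79B work as a pair, the level of Cd79a divided by that of Cd79b was 1.12 in Null, 1.26 in B, 1.18 in A, 0.364 in BB, 0.330 in AB and 0.573 in AABB. Cd79a was thus the more abundant of the pair in the 3 genotypes where the genes were highest, and the less abundant in BB, AB and AABB.

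The surface markers divided. Ms4a1, which encodes the CD20 membrane protein of mature B cells, stood at 2.18 scaled FPKM in Null, 25.9 in B, 21.9 in A, 0.736 in BB, 0.657 in AB and 0.137 in AABB. Its level in B was 189 times and in A 160 times that in AABB, ratios of levels that rest on a very low AABB value, against log2 ratios with the added 1 FPKM of 4.56 and 4.33. Cd22, a sialic acid binding receptor that restrains signalling from the B cell receptor, stood at 1.05 in Null, 14.7 in B, 10.9 in A, 0.930 in BB, 0.397 in AB and 1.06 in AABB. Unlike Ms4a1, whose log2 ratio in Null was 1.49, Cd22 in Null was level with AABB (log2 ratio -0.01).

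Blk, a SRC family kinase of B cells, was among the least abundant of the genes, at 0.387 scaled FPKM in Null, 6.06 in B, 4.52 in A, 0.232 in BB, 0.295 in AB and 0.151 in AABB. Its log2 ratio over AABB was 2.62 in B and 2.26 in A, and 0.27 in Null. All 4 genotypes other than B and A lay below 1 FPKM for Blk, where the added 1 FPKM compresses any ratio.

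The nuclear factors also differed in Null. Pax5 stood at 0.569 scaled FPKM in Null, 6.00 in B, 5.22 in A, 0.159 in BB, 0.134 in AB and 0.640 in AABB. Pou2af1, the coactivator OBF-1 that binds octamer factors at immunoglobulin promoters, stood at 1.11 in Null, 14.1 in B, 9.45 in A, 0.597 in BB, 0.523 in AB and 0.201 in AABB. Pax5 in Null was no higher than in AABB (log2 ratio -0.06), while Pou2af1 was higher in Null by a log2 ratio of 0.81. For Pax5 and Cd22 AABB held the third place behind B and A, and for the other 5 genes Null did. AABB led Null only narrowly, at 1.06 against 1.05 scaled FPKM for Cd22 and 0.640 against 0.569 for Pax5. Pax5 lay below 1 FPKM in every genotype but B and A. Relative to Ptprc, the leukocyte gene described below, Null lay above AABB for both genes.

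All 7 genes were at least 2-fold higher than AABB in B, where 7.56% of the 13367 genes tested were (and 5.18% lower), and all 7 in A, where 7.01% were (and 5.54% lower). The median log2 ratio of the 7 was 3.65 in B and 3.12 in A. In Null 3 of 7 were at least 2-fold higher (Cd79a, Cd79b and Ms4a1, median of the 7 at 0.81), against 2.21% of all genes higher and 2.09% lower. None was past 2-fold in BB (median 0.33, with 5.12% of all genes higher and 3.6% lower) or in AB (median 0.17, with 6.78% higher and 5.01% lower). These comparisons share the AABB column, and the genes were chosen for such differences, so the counts are not read against the background here. The median over all genes tested ran from -0.02 to 0.05 on the log2 scale over the day 6 comparisons.

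**Figure D2:**
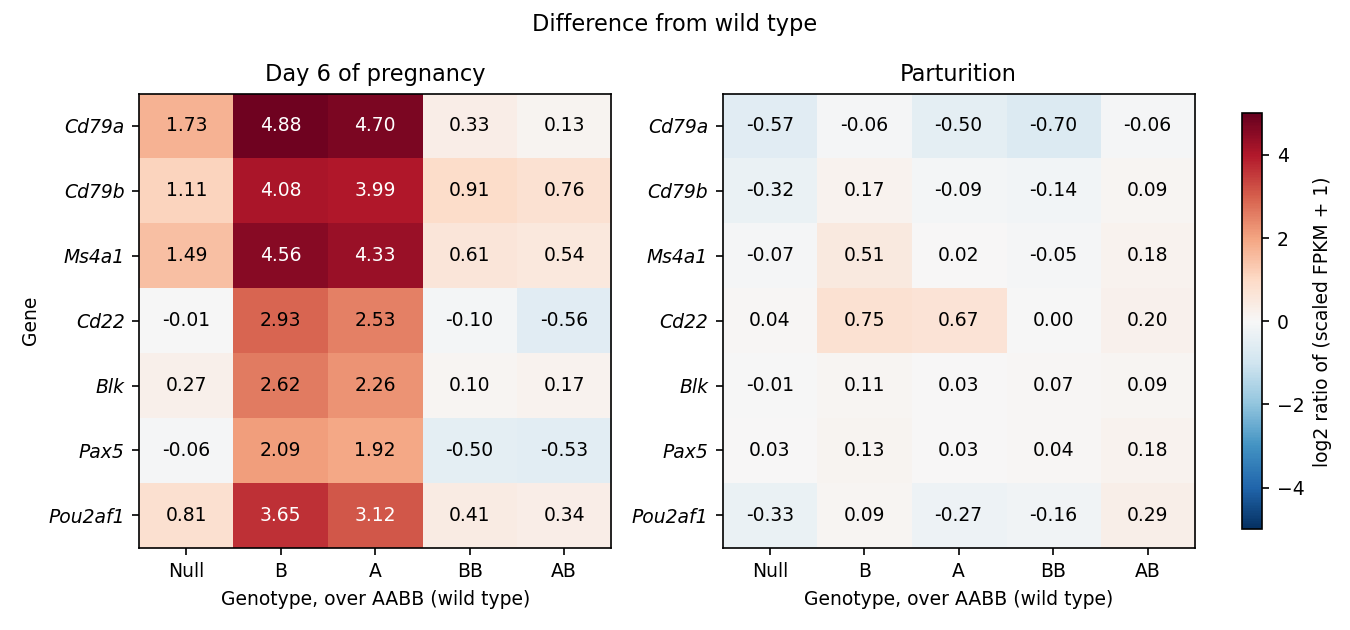
Log2 ratio over AABB of scaled FPKM + 1 for each B lymphocyte gene (rows) in the 5 mutant genotypes (columns) at day 6 of pregnancy (left) and parturition (right); colour and printed value give the ratio of the authors' means, red for higher and blue for lower than AABB. At day 6 the B and A cells lie between 1.92 and 4.88 and those of BB and AB between -0.56 and 0.91, and at parturition all cells lie between -0.70 and 0.75.

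Between the mutants, the columns labelled A and B were close. A lay below B for all 7 genes, by log2 ratios between -0.10 for Cd79b and -0.53 for Pou2af1, but with the columns scaled to equal Ptprc, the leukocyte gene described below, A lay above B for Cd79a (log2 ratio 0.09), Cd79b (0.18), Ms4a1 (0.04) and Pax5 (0.06). On the main scale none of the 7 was past 2-fold, as for nearly all genes tested (0.135% higher and 0.247% lower). AB and BB were likewise close, with log2 ratios from -0.47 for Cd22 to 0.07 for Blk, none past 2-fold, against 1.73% of all genes higher and 0.988% lower. BB lay far from the column labelled B: all 7 genes were at least 2-fold lower in BB, with log2 ratios from -2.52 for Blk to -4.55 for Cd79a, where 4.59% of all genes were lower and 1.87% higher. All 7 were also at least 2-fold higher in B than in Null (median 2.94, 6.42% of all genes higher and 3.95% lower) and in A than in Null (median 2.54, 6.08% of all genes higher and 4.67% lower).

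Ptprc, the CD45 phosphatase of nearly all white blood cells, was used as a single leukocyte gene to set the B lymphocyte genes against. It is not a measure of all leukocyte RNA. Of 8 pan-leukocyte genes it had the highest log2 ratio over AABB in B (2.47, list median 1.06) and in A (2.19, list median 0.62). Between B and Null its log2 ratio was 2.74, against a list median of 1.37. Ptprc stood at 4.21 scaled FPKM in Null, 33.8 in B, 27.7 in A, 8.33 in BB, 9.02 in AB and 5.29 in AABB at day 6. The summed level of the 7 genes per unit of Ptprc was 3.93 in Null, 5.22 in B, 5.45 in A, 1.06 in BB, 0.805 in AB and 0.986 in AABB. On this single-gene scale Null joined B and A, and the 3 stood above BB, AB and AABB. The sum over 8 pan-leukocyte genes, Ptprc among them, was 173 in Null, 378 in B and 289 in A. That spread was much narrower than that of Ptprc, so the grouping of Null with B and A rests on Ptprc. Cd79a per Ptprc was 1.41 in Null, 1.81 in B, 1.93 in A, 0.197 in BB, 0.144 in AB and 0.208 in AABB. When the columns were scaled to equal Ptprc, 0 of the 7 genes were past 2-fold in B against Null and 0 in A against Null, whereas 5 of 7 were at least 2-fold higher in B and in A than in AABB, and 4 of 7 in Null. Scaling to Ptprc shifts every gene of a column, and the share of all genes past 2-fold was not computed on this scale. These counts therefore have no background beside them and are not read as a result. B lymphocytes carry CD45 themselves, so the scale is not independent of the genes read on it.

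**Figure D3:**
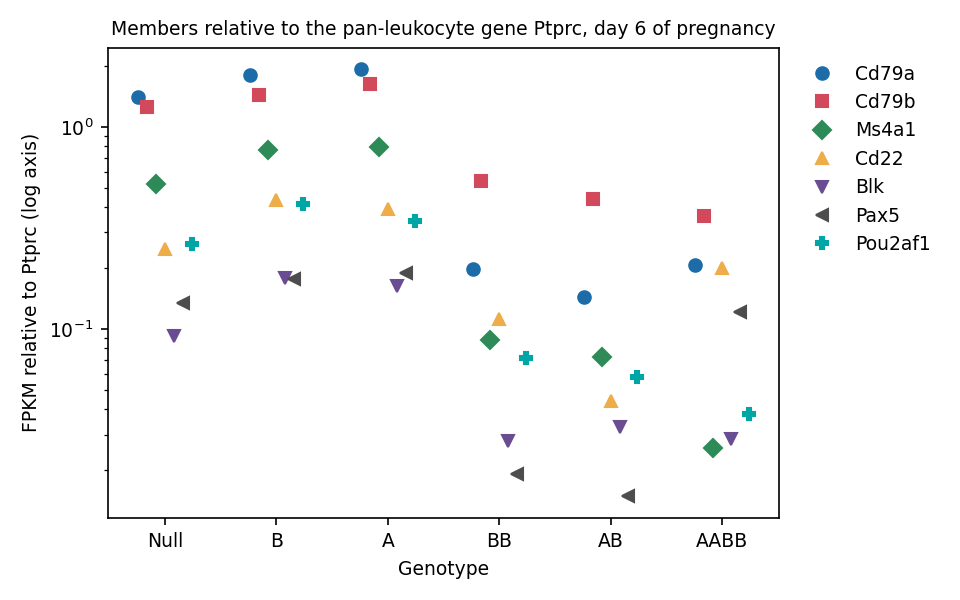
Level of each B lymphocyte gene divided by the level of Ptprc (log axis) in each genotype at day 6 of pregnancy; points are ratios of the authors' means. Cd79a lies at 1.41 in Null, 1.81 in B and 1.93 in A, against 0.197 in BB, 0.144 in AB and 0.208 in AABB.

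The make-up of the summed level was nearly the same in B, A and Null, although the sum itself was 16.6 scaled FPKM in Null, 176 in B and 151 in A. Cd79a made up 35.9% of the sum in Null, 34.6% in B, 35.5% in A, 18.7% in BB, 17.9% in AB and 21.1% in AABB. Cd79b took the largest share in the other 3 genotypes, with 51.2% in BB, 54.4% in AB and 36.9% in AABB, against 32.0% in Null, 27.6% in B and 30.1% in A. In AABB, Cd22 and Pax5 held larger shares than elsewhere, 20.4% and 12.3%, and Ms4a1 a smaller one, 2.62%, all from levels near or below 1 FPKM. Each gene was also correlated at day 6 with the mean of the other 6 over the 6 columns. The r ran from 0.973 for Pax5 to 0.997 for Pou2af1, and the columns share their scaling. Columns B and A carry most of the spread, and the genes were chosen with these levels in view. A high r was thus built into the choice and is a description only.

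**Figure D4:**
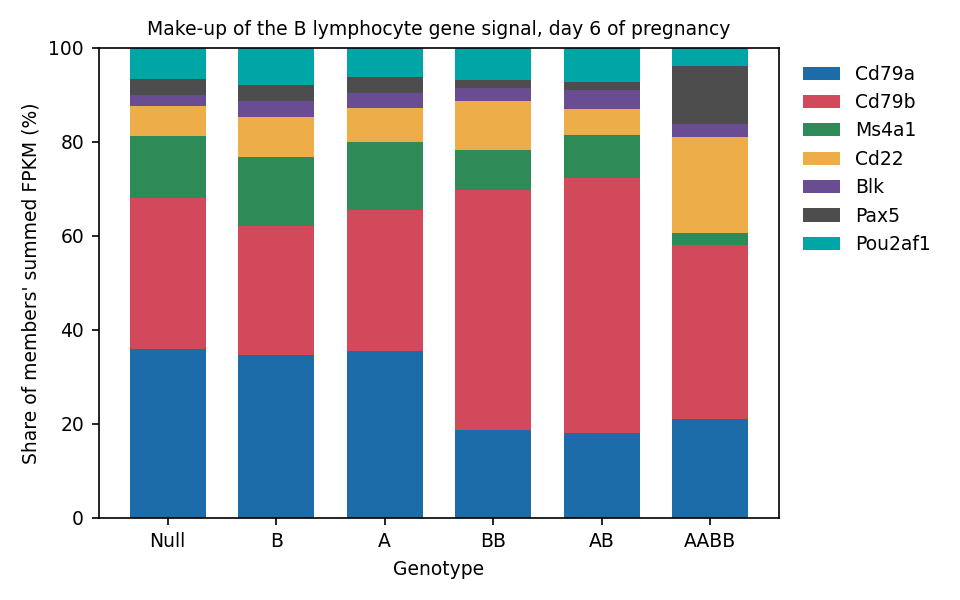
Share of each B lymphocyte gene in the summed FPKM of the 7 genes (%, stacked bars) in each genotype at day 6 of pregnancy, from the authors' means. Null, B and A have like make-ups, with Cd79a between 34.6% and 35.9%, and Cd79b is the largest part in BB, AB and AABB.

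Other genes of the B lineage were read in lists that, like the 7 genes, were drawn up with earlier results of these tables known. Of 15 further B cell surface genes, 1 was at least 2-fold higher than AABB in Null, 14 in B, 13 in A, and 0 in BB and in AB, with none lower. Fcmr, the immunoglobulin M Fc receptor (Faim3 in the tables), was the gene past 2-fold in Null, at 1.86 scaled FPKM there, 21.8 in B, 12.9 in A, 0.716 in BB, 0.494 in AB and 0.259 in AABB. Cd180, a Toll-like receptor relative also found on macrophages, was the exception in B, with a log2 ratio of 0.56. Cd37, a tetraspanin of B cells, was the most abundant of the list, at 10.9 in Null, 45.5 in B, 35.4 in A, 13.1 in BB, 11.6 in AB and 10.6 in AABB. Most of these surface genes had high values in the columns labelled B and A, as had many genes of other leukocytes given below, so this says nothing particular to B cells.

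Of 14 genes that carry the receptor signal, 6 were at least 2-fold higher than AABB in B, 5 in A, 1 in BB and 1 in AB, and in Null 1 was lower and none higher. Bank1, a scaffold of B cell receptor signalling, was the gene past 2-fold in BB and in AB, at 0.820 scaled FPKM in Null, 11.6 in B, 10.2 in A, 1.74 in BB, 2.64 in AB and 0.351 in AABB. Ptpn6, the SHP-1 phosphatase recruited by CD22, stood at 9.04 in Null, 35.6 in B, 28.0 in A, 11.3 in BB, 10.8 in AB and 10.7 in AABB. Lyn, a kinase shared with myeloid cells, spanned a narrow range, 17.0 in Null and 24.5 in B with the other genotypes between. Pik3ap1, the adaptor BCAP, was the gene lower in Null, at 4.42 there and 11.0 in AABB.

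Of 12 transcription factors, 7 were at least 2-fold higher than AABB in B, 5 in A, 1 in Null, 1 in BB and 3 in AB, and 1 was lower in A. Ikzf3, the lymphoid factor Aiolos, stood at 0.510 scaled FPKM in Null, 7.01 in B, 5.19 in A, 0.347 in BB, 0.393 in AB and 0.177 in AABB. Ebf1, a B lineage factor also expressed in fat and stromal cells, had another order, 15.6 in Null, 22.5 in B, 22.6 in A, 25.2 in BB, 34.3 in AB and 9.997 in AABB. Irf4, a factor of activated lymphocytes and plasma cells, was the gene past 2-fold in Null, at 11.0 there, 12.6 in B, 10.8 in A, 3.87 in BB, 8.51 in AB and 2.08 in AABB. Tcf3, the broadly expressed factor E2A, was the gene lower in A, at 14.4 there and 30.4 in AABB.

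Lists of early and late B lineage stages were read in the same way. Of 7 precursor genes, 1 was past 2-fold in B and in A, Vpreb3, at 0.621 scaled FPKM in Null, 3.04 in B, 2.88 in A, 0.285 in BB, 0.221 in AB and 0.462 in AABB. Rag1, the recombinase of precursors, did not exceed 0.0692 in any day 6 column. None of 6 germinal centre genes was past 2-fold in any genotype. Of 8 plasma cell genes measured, 1 was at least 2-fold higher in Null, 3 in B, 2 in A, 1 in BB and 0 in AB, and 1 was lower in AB. Jchain, the joining chain of secreted immunoglobulin A and M (Igj in the tables), stood at 8.45 in Null, 55.6 in B, 13.1 in A, 19.8 in BB, 4.54 in AB and 2.84 in AABB. B thus held far more Jchain than A, unlike the 7 B lymphocyte genes. The log2 ratio of Jchain over AABB in B was 3.88, where the median of the 7 genes was 3.65. Ighm, Igkc, Ighg1 and Igha were not matched in the tables and are not analysed here.

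Cxcl13, the chemokine that draws B cells through CXCR5, stood at 3.79 scaled FPKM in Null, 39.3 in B, 8.33 in A, 2.96 in BB, 5.37 in AB and 0.351 in AABB. All 5 mutant genotypes were past 2-fold above AABB, and B was again well above A. Tnfsf13b, the survival ligand BAFF, stood at 1.71 in Null, 5.73 in B, 5.04 in A, 1.90 in BB, 2.62 in AB and 0.915 in AABB. Ccl19, Ccl21a and Ccl28 were listed at 0 in all 12 columns.

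Markers of other cell types also differed between these columns. Natural killer cell genes were, like the B lymphocyte genes, highest in the columns labelled B and A, with sums over 6 genes of 2.59 scaled FPKM in Null, 24.3 in B, 14.0 in A, 4.45 in BB, 5.41 in AB and 5.97 in AABB, and 4 of the 6 at least 2-fold higher than AABB in B and 2 in A. Neutrophil sums over 6 genes were 5.14 in Null, 27.0 in B, 28.5 in A, 12.8 in BB, 11.5 in AB and 4.77 in AABB, and pan-leukocyte sums over 8 genes, Ptprc among them, were 173 in Null, 378 in B, 289 in A, 230 in BB, 243 in AB and 235 in AABB. The sums of these 3 lists thus had B and A on top, but not every gene did. Of the 6 neutrophil genes, 2 were at least 2-fold higher than AABB in B and 2 in A. The neutrophil list medians were 0.83 and 0.45, and Retnlg was highest, at log2 ratios of 3.84 and 4.15. Of the 8 pan-leukocyte genes, 4 were past 2-fold in B and 3 in A. Laptm5 went the other way, at -0.32 in B and -0.72 in A. Of 12 T cell genes, 8 were at least 2-fold higher than AABB in B, 1 in A and 0 in Null, BB and AB, with summed levels of 19.8 scaled FPKM in Null, 36.7 in B, 16.3 in A, 17.4 in BB, 10.2 in AB and 11.0 in AABB. Cd3e, a defining T cell marker, was 6.11 in Null, 2.82 in B, 0.640 in A, 1.69 in BB, 0.722 in AB and 3.09 in AABB. It did not stand for the list. Its log2 ratio over AABB was the highest of the 12 in Null (0.80, list median 0.34). The same ratio was the lowest in B (-0.10, list median 1.21) and in A (-1.32, list median 0.37). The T cell sum in A was thus close to those of Null and BB, whereas the B lymphocyte sum was not. Of 7 mast cell genes, 4 were at least 2-fold higher in Null, 6 in B, 6 in A, 5 in BB and 5 in AB, with sums of 75.6 in Null, 475 in B, 463 in A, 379 in BB, 287 in AB and 69.4 in AABB. Mast cell and macrophage genes were also high in BB and AB, where the B lymphocyte genes were low: macrophage sums were 428 in Null, 888 in B, 861 in A, 887 in BB, 986 in AB and 499 in AABB. Of 7 luminal epithelial genes, 2 were at least 2-fold lower in Null, 4 in B, 4 in A, 2 in BB and 4 in AB, with sums of 1476 in Null, 1231 in B, 1104 in A, 1241 in BB, 837 in AB and 1802 in AABB. Skeletal muscle genes, with sums from 23.1 in B to 5231 in AB, moved in another order. The part of these other cell types in the B lymphocyte values was not tested.

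**Figure D5:**
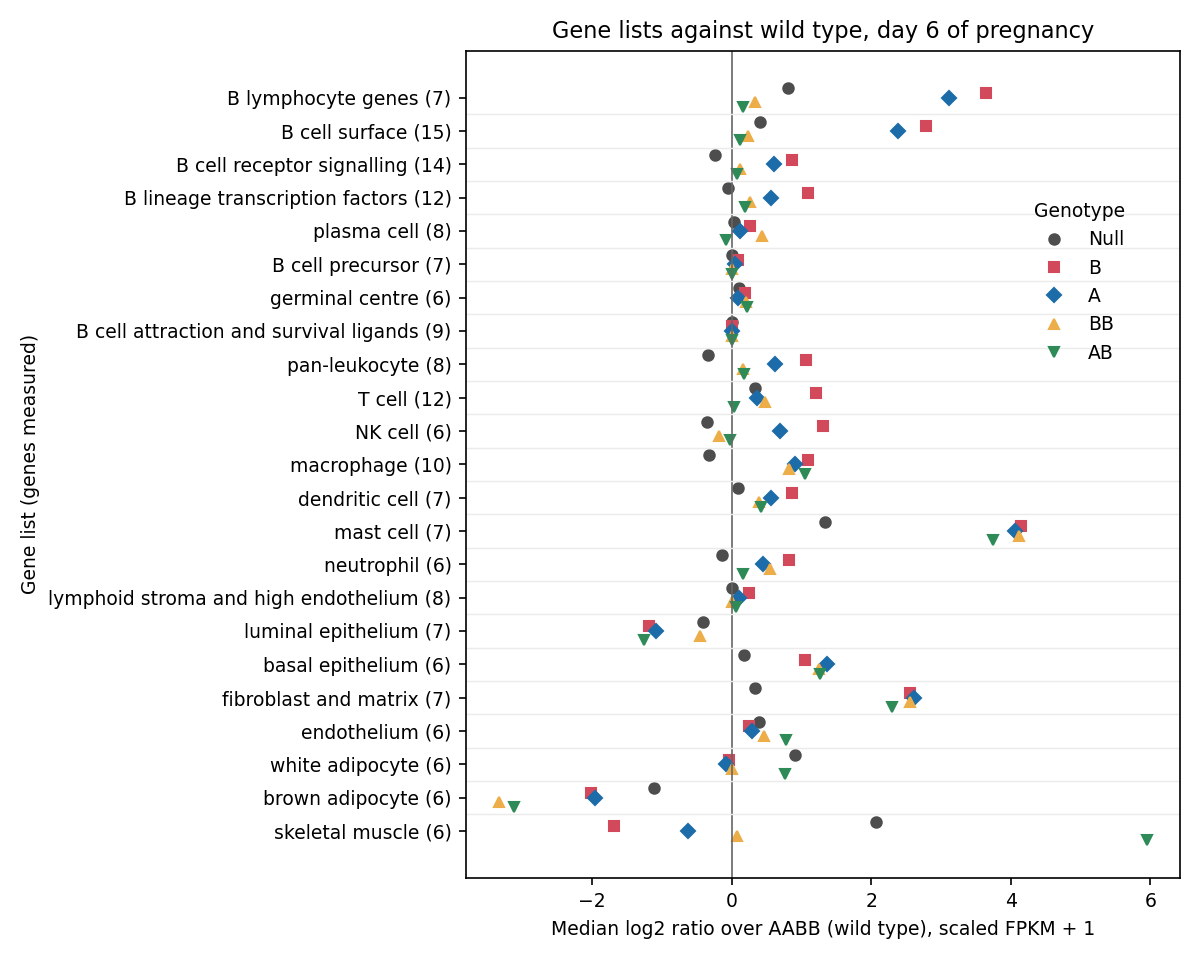
Median log2 ratio over AABB (scaled FPKM + 1) of each gene list at day 6 of pregnancy in the 5 mutant genotypes, with the number of genes measured in brackets. The B lymphocyte genes lie at 3.65 in B and 3.12 in A and at most at 0.81 in the other mutants, while the mast cell genes lie at 3.75 or above in B, A, BB and AB.

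At parturition the B lymphocyte genes were near the bottom of the measured range in every genotype. Their summed level was 1.33 scaled FPKM in Null, 4.35 in B, 2.47 in A, 1.61 in BB, 3.56 in AB and 2.64 in AABB. No gene reached 1 deposited FPKM in 2 columns, so 0 of 7 passed the filter that 13061 genes passed. At day 6, 7 of 7 passed. Blk and Pax5 did so only through the columns labelled B and A, and Ms4a1 and Pou2af1 only through these and Null. The 2 counts are thus not compared. The levels of the 2 stages come from tables scaled apart and are set side by side with no comparison.

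Cd79a at parturition stood at 0.281 scaled FPKM in Null, 0.818 in B, 0.344 in A, 0.168 in BB, 0.829 in AB and 0.901 in AABB. Cd79b stood at 0.524 in Null, 1.13 in B, 0.786 in A, 0.718 in BB, 1.03 in AB and 0.898 in AABB. The receptor partners were thus not higher in A than in AABB, and in B they lay close to AABB. Ms4a1 stood at 0.0575 in Null, 0.577 in B, 0.124 in A, 0.0743 in BB, 0.256 in AB and 0.110 in AABB. Cd22 stood at 0.228 in Null, 1.02 in B, 0.901 in A, 0.195 in BB, 0.376 in AB and 0.196 in AABB. Cd22 alone kept an order with B and A on top. Blk did not exceed 0.0920 and Pax5 0.130, and Pax5 was listed at 0 in AABB. Pou2af1 stood at 0.212 in Null, 0.627 in B, 0.264 in A, 0.368 in BB, 0.865 in AB and 0.526 in AABB, with AB highest.

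Across the 7 genes at parturition the highest genotype was B for 4, AB for 2 and AABB for 1. None of the 7 was past 2-fold in any of the 10 comparisons. Against AABB the share of all genes at least 2-fold higher was 19.1% in Null, 18.2% in B, 17.3% in A, 8.07% in BB and 10.2% in AB, and 10.7%, 10.1%, 10%, 5.37% and 5.45% were lower in the same order. Between mutants, 0.36% of all genes were higher and 0.345% lower in A against B, 1.06% and 0.72% in AB against BB, 3.25% and 4.62% in BB against B, 2.72% and 2.86% in B against Null, and 3.51% and 3.19% in A against Null. At levels this low a 2-fold difference in FPKM can hardly pass 2-fold once 1 FPKM is added, so these counts do not speak to differences between the genotypes. Ptprc stood at 5.28 in Null, 6.73 in B, 5.59 in A, 4.05 in BB, 3.98 in AB and 3.33 in AABB, and the summed level of the 7 genes per Ptprc was 0.252 in Null, 0.647 in B, 0.442 in A, 0.397 in BB, 0.895 in AB and 0.792 in AABB. Null, which had a high value per Ptprc at day 6, had the lowest at parturition. Each gene's correlation with the mean of the other 6 ran from r = 0.405 for Cd22 to r = 0.939 for Cd79b over the 6 columns.

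Among 12757 genes ranked over all 12 columns, the 10 with profiles most like the mean of the 7 genes were led by Gimap3, a GTPase of lymphocytes, with r = 0.982, and Ptprcap, a CD45 associated protein, with r = 0.970. Gimap3 stood at 1.47 scaled FPKM in Null, 11.6 in B, 8.62 in A, 1.48 in BB, 0.917 in AB and 0.677 in AABB at day 6. Top3a, Rhof, A630001G21Rik, Ino80, Arhgap4, Ptpn6, Dennd1c and Pot1b followed, down to r = 0.941. A high r did not mean a large difference: Top3a stood at 3.98 in Null, 5.16 in B, 5.40 in A, 3.74 in BB, 3.84 in AB and 3.61 in AABB. Over the 6 day 6 columns alone, with 13360 genes ranked, the 10 most alike shared 0 genes with the 10 of the longer ranking and included Fcer2a, Gimap8, Fcrl1, Tbce, Tbl1xr1, Zfp451, Grk4, 4921513D23Rik and Btla. The longer ranking took only genes of at least 1 FPKM in at least 2 columns of each stage. Fcer2a, Fcrl1 and Btla could not enter it, with at most 0.177, 0.329 and 0.442 scaled FPKM at parturition. Tbce, at 4.95 to 11.6 there, could. The 2 rankings thus differ in the genes admitted as well as in the columns. Fcer2a, the low affinity receptor for immunoglobulin E on B cells, led with r = 1.00, at 0.986 in Null, 18.1 in B, 14.9 in A, 0.425 in BB, 0.221 in AB and 0.188 in AABB. Fcrl1 and Btla, surface proteins of lymphocytes, were at 9.23 and 9.73 in B. These correlations describe columns of means in which B and A carry most of the spread.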

How the data were processed

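Poly(A) RNA of mammary tissue was sequenced on a HiSeq machine after TRIzol extraction, per the labels' protocols. CASAVA, TopHat and the build mm9 are named, without versions, per the submitters' processing notes. The program behind the FPKM values and the gene annotation are not given in the sources used here. The 2 deposited tables give, for 22609 gene symbols, FPKM as the authors' mean per genotype.

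Columns were scaled within a stage by the median of their ratios to the geometric mean, taken over genes of at least 1 FPKM in all 6 columns. The FPKM sums ranged from 433958 to 528347 at day 6 and from 432576 to 1190588 at parturition, and the factors from 0.916 to 1.07 and from 0.794 to 1.13. Genes of at least 1 FPKM in at least 2 columns formed the background. Ratios are log2 of scaled FPKM + 1, and 2-fold was the call. Because means allow no test, the tests planned on samples were replaced by these ratios. The members and lists were chosen with earlier results of these data known. Genes named are the 7 members, the most abundant and the most and least changed of each list, listed defining markers, and the 10 most alike; further examples were chosen after their values were seen. A few genes that this rule takes are not reported here. Alternatives were a pseudocount of 0.1, no filter, a floor of 5 FPKM, no scaling, and scaling to Ptprc. The calculation was tested on simulated data. Python 3.11.15, numpy 2.4.6, pandas 2.3.3 and matplotlib 3.10.9 were used.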

Additional observations from a re-analysis of the deposited data

How the results depend on the processing

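No paired analysis was possible because each column is a mean over samples and carries no replicate number, and for the same reason no sample could be left out. Of the 140 log2 ratios of the 7 genes, 18 changed sign when scaled to Ptprc, 4 without scaling and 0 with a pseudocount of 0.1; none of these was past 2-fold on either scale. Scaled to Ptprc at day 6, the changes were, beside A against B, Cd79a to -0.05 in BB and -0.34 in AB, Blk to -0.01 in BB, and Cd22 to 0.22 and Pax5 to 0.09 in Null, all against AABB. A pseudocount of 0.1 moved counts of low genes: at day 6, 4 of the 7 genes were then past 2-fold in BB against AABB (3 higher, 1 lower), 5 in AB against AABB (3 higher, 2 lower) and 1 in AB against BB (lower). Of 13367 genes tested at that setting, 1067 were higher and 824 lower in BB than in AABB. In AB against AABB 1307 were higher and 1021 lower, and in AB against BB 344 and 238. At parturition, where the main count was 0, some were past 2-fold with that pseudocount. Against AABB these were 2 in Null (lower), 2 in B (higher) and 2 in A (1 higher, 1 lower). In BB 1 was lower and in AB 1 higher. Between mutants they were 2 in A against B (lower), 3 in AB against BB (higher) and 3 in BB against B (lower). Against Null, 4 were higher in B and 1 in A. Of 13061 genes tested at that setting, 3198 were higher and 1645 lower in Null than in AABB. In B against AABB these were 3198 and 1583, in A 3130 and 1578, in BB 1838 and 980, and in AB 2146 and 990. In A against B they were 80 and 115, in AB against BB 304 and 195, and in BB against B 570 and 1129. In B against Null they were 603 and 568, and in A against Null 711 and 672. At these low levels the member counts are not read as a result. Scaled to Ptprc at day 6, 1 gene was past 2-fold in AB against AABB (lower), and 0 were in B against Null and 0 in A against Null, where all 7 were before. No share of all genes was computed on the Ptprc scale, so these counts are not read against a background. Without scaling, the median of all genes lay between -0.23 and 0.53 on the log2 scale over the parturition comparisons. The counts of the 7 genes then stayed within 1.5 times in all 20 comparisons, with counts of 0 staying 0. All 10 parturition counts were 0, and the added 1 FPKM leaves them little room to move. Those counts thus do not speak to stability. Of 40 counts over all genes, 24 moved by over 1.5 times with the smaller pseudocount, 11 without scaling, 6 with the floor of 5 FPKM and 0 without the filter; with the smaller pseudocount 1587 genes were higher in B and 1514 in A than in AABB at day 6. Read depth is unknown, so levels below 1 FPKM carry no stated precision.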

Other observations

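Genes of antibody secretion and transport had another pattern than the B lymphocyte genes at parturition. Jchain stood at 14.2 scaled FPKM in Null, 6.76 in B, 1.84 in A, 8.18 in BB, 20.3 in AB and 20.4 in AABB, so A and B were the lowest, where at day 6 B was the highest. Pigr, the epithelial receptor that carries polymeric immunoglobulin into milk, stood at 1.79 in Null, 13.3 in B, 16.0 in A, 165 in BB, 177 in AB and 431 in AABB at parturition, and at 0.200 in Null, 0.404 in B, 0.566 in A, 0.329 in BB, 0.313 in AB and 2.48 in AABB at day 6. The order of Pigr at parturition followed the number of Stat5 alleles, from 0 in Null to 4 in AABB. Madcam1, the vessel ligand that mucosal lymphocytes bind, stood at 1.87 in Null, 8.80 in B, 13.1 in A, 4.42 in BB, 10.03 in AB and 10.9 in AABB at parturition, with no such order. Cxcl13 was still higher in B and A than elsewhere, at 1.97 in Null, 9.80 in B, 14.6 in A, 0.428 in BB, 1.07 in AB and 0.0430 in AABB.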
